A study of Homo sapiens with 22 samples.

Results

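The nuclear-encoded subunits of the mitochondrial respiratory chain are described here in a leukaemia line, Kasumi-1, in which FIP1L1 was knocked down. The set held the protein-coding genes whose symbol starts with NDUFA, NDUFB, NDUFC, NDUFS, NDUFV, UQCR, COX4 to COX8 or ATP5, the 4 genes SDHA to SDHD, CYC1 and CYCS, without the NDUFAF assembly factors. The rule found 92 of the 48162 genes in the RNA-seq table, and 178 further symbols that matched it were left out because they are not annotated as protein-coding. By complex these were 38 genes of complex I, 4 of complex II, 10 of complex III, 1 for cytochrome c, 19 of complex IV and 20 of ATP synthase. NDUFA4 and its relative NDUFA4L2 were placed with complex IV, where the NDUFA4 protein is now counted. The filter on low counts passed 85 of the 92, and 7 could not be tested: COX4I2, COX6A2, COX7B2 and NDUFC2-KCTD14 had no count in any of 12 libraries, and COX8C, ATP5MF-PTCD1 and ATP5MGL stayed at or under 0.526 CPM (counts per 1000000 of the scaled library size) in every library.

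The line was established from human acute myeloid leukaemia and has a RUNX1-RUNX1T1 fusion, and FIP1L1 is a subunit of the complex that recognises the polyadenylation signal of pre-mRNAs. Cells received lentivirus carrying FIP1L1 shRNA 1, FIP1L1 shRNA 2 or a control shRNA and were selected with puromycin, so all groups share transduction and selection. The RNA-seq set had 4 libraries of each kind, which the labels call biological replicates. Separate transductions are not stated, so that each p-value reflects spread that may be technical. Total counts ran between 12236937 and 20388437 per library. FIP1L1 stood at 14.1, 14.7, 15.1 and 17.6 CPM with shRNA 1 and at 20.2, 20.2, 19.1 and 18.7 CPM with shRNA 2, against 42.2, 38.9, 44.1 and 40.2 CPM in controls, with log2 fold changes of -1.43 ± 0.10 and -1.08 ± 0.10 (standard error). Myeloid markers summed to 7813 to 9970 CPM with shRNA 1 and 10645 to 13253 CPM with shRNA 2, against 17664 to 19785 CPM in controls, with 0 of 7 markers absent. Of these 7, 6 fell with shRNA 1, and 4 fell and 1 rose with shRNA 2. Among all tested genes 28.7% fell with shRNA 1, and 25.3% fell and 24.7% rose with shRNA 2. Lymphoid markers summed to at most 7.62 CPM, with MS4A1 at 0 throughout. Epithelial and stromal markers summed to 39.5 to 48.4 CPM with shRNA 1 and 136 to 144 CPM with shRNA 2, against 122 to 150 CPM in controls, with COL1A2 at 0. Among erythroid markers, ALAS2 was at 0.526 to 1.54 CPM with shRNA 1 and 0.0567 to 0.424 CPM with shRNA 2, against 0 to 0.171 CPM in controls. HBA1 was at 0.132 to 1.38 CPM with shRNA 1 and 0.053 to 0.164 CPM with shRNA 2, against 0 to 0.673 CPM in controls. HBA2 was at 0 to 0.857 CPM with shRNA 1 and 0.106 to 0.133 CPM with shRNA 2, against 0 to 0.0854 CPM in controls, and reads of these near-identical copies may be divided between them. HBB was at 0 throughout. The part of these marker levels in the results below was not tested. In RNA from whole cultures, fewer cells of a type and less RNA per cell cannot be told apart.

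The respiratory chain passes electrons from NADH through complex I, or from succinate through complex II, to ubiquinone, then through complex III and the mobile carrier cytochrome c to complex IV, which reduces oxygen. Complexes I, III and IV pump protons across the inner mitochondrial membrane, and ATP synthase uses the return flow to make ATP. Most subunits are encoded in the nucleus and imported, while mitochondrial DNA encodes 13 core subunits of complexes I, III and IV and of ATP synthase, so that the complexes are built from products of both genomes. Promoters of many nuclear genes of this set are known targets of the factors NRF1, GABP (an ETS family factor, also called NRF2) and YY1.

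Promoter sequence is shown first for 5 members, 3 whose mRNA fell with both shRNAs and hold the NRF1 core and 2 whose mRNA rose with both. Each line gives 100 bases of RefSeq sequence (GRCh38.p14), 5′ to 3′ on the gene's own strand, with the motif letters in capitals. CYCS lies at chr7:25125376-25125475 on the minus strand, SDHB at chr1:17054179-17054278 on the minus strand, SDHD at chr11:112086717-112086816 on the plus strand, COX7C at chr5:86617841-86617940 on the plus strand and NDUFA13 at chr19:19516125-19516224 on the plus strand.
CYCS: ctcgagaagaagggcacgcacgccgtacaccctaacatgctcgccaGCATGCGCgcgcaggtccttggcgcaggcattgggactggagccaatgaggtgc
SDHB: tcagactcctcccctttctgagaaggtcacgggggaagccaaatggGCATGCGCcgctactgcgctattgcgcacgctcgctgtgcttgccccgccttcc
SDHD: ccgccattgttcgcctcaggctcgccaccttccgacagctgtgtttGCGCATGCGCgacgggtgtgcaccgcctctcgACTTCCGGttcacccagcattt
COX7C: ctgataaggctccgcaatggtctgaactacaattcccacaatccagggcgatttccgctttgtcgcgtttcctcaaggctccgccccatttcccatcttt
NDUFA13: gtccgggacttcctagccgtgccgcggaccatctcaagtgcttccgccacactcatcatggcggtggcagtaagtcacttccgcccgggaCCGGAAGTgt
The NRF1 core began 169 bases before the annotated start in CYCS and 200 bases before it in SDHB. In SDHD the 2 matches overlap on opposite strands and begin 110 and 108 bases before the start, with an ETS core 78 bases before it. None of the motifs searched was found in the 300 bases of COX7C, and NDUFA13 had an ETS core 10 bases before its start. SDHB and NDUFA13 each also held a YY1 core just after the start, outside the bases shown.

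Motifs were sought on both strands, in the window of 250 bases before to 50 bases after each start, as the letters GCATGCGC for NRF1, CCGGAAGT for ETS factors and ATGGCGGC for YY1. A RefSeq promoter was at hand for 72 of the 92 members. CYC1 and ATP5F1B were among those without one, so the motif counts leave them out. The NRF1 core was in 15 of these 72 (20.8%), against 6.35% of 10848 tested genes with a promoter entry and 3.68% of all 27305 genes with one. The ETS core was in 12 of 72 members (16.7%), against 9.6% of tested genes and 4.95% of all genes with an entry. The YY1 core was also in 12 members (16.7%), against 7.18% of tested genes and 3.67% of all genes with an entry. Among members lower with both shRNAs, 4 of 14 with a promoter held the NRF1 core, as did 6 of 20 that were lower with shRNA 1 and not called with shRNA 2, and 4 of 18 called with neither. It was in 0 of 5 members higher with both. These are letter matches and do not show binding.

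With shRNA 1 the set was mostly lower: 43 of the 85 tested members fell and 8 rose, at a Benjamini-Hochberg adjusted p under 0.05 over all 15834 genes tested (edgeR quasi-likelihood test). That is 50.6% lower and 9.41% higher, where 28.7% of all tested genes were called lower and 28.6% higher, 57.3% in all. The median log2 fold change was -0.38 over the members and 0.02 over all tested genes. Every shRNA 1 library was below every control library for 30 members and above for 6, against 24.6% and 23.7% of all tested genes.

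With shRNA 2 fewer members changed: 26 fell (30.6%) and 10 rose (11.8%), where 25.3% of all tested genes were called lower and 24.7% higher, 50.0% in all. The share of members called lower was thus near that of all genes. The median log2 fold change was -0.00 over the members and 0.00 over all genes. Every shRNA 2 library was below every control for 25 members and above for 16, against 25.2% and 25.0% of all tested genes. The number called higher was 18 when only the shRNA 2 and control libraries were fitted. In that fit 29.5% of all tested genes were called higher.

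The direct comparison of the knockdowns showed the difference between them. In shRNA 2 libraries 43 members were higher (50.6%) and 11 lower (12.9%) than in shRNA 1 libraries, where 29.3% of all tested genes were called higher and 29.4% lower, 58.7% in all. The median log2 difference was 0.37 over the members and -0.02 over all genes. Set side by side, 17 of the 85 tested members were lower with both shRNAs (20%, against 12.8% of all tested genes) and 5 were higher with both (5.88%, against 12.6%). Another 25 were lower with shRNA 1 and not called with shRNA 2 (29.4%, against 11.5%), and 8 were lower with shRNA 2 and not called with shRNA 1 (9.41%, against 8.95%). The calls had opposite directions for 2 members (2.35%, against 7.86%), and 22 were called with neither shRNA (25.9%, against 26.0%). Both comparisons use the same control libraries, so these joint counts are a description only.

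**Figure D1:**
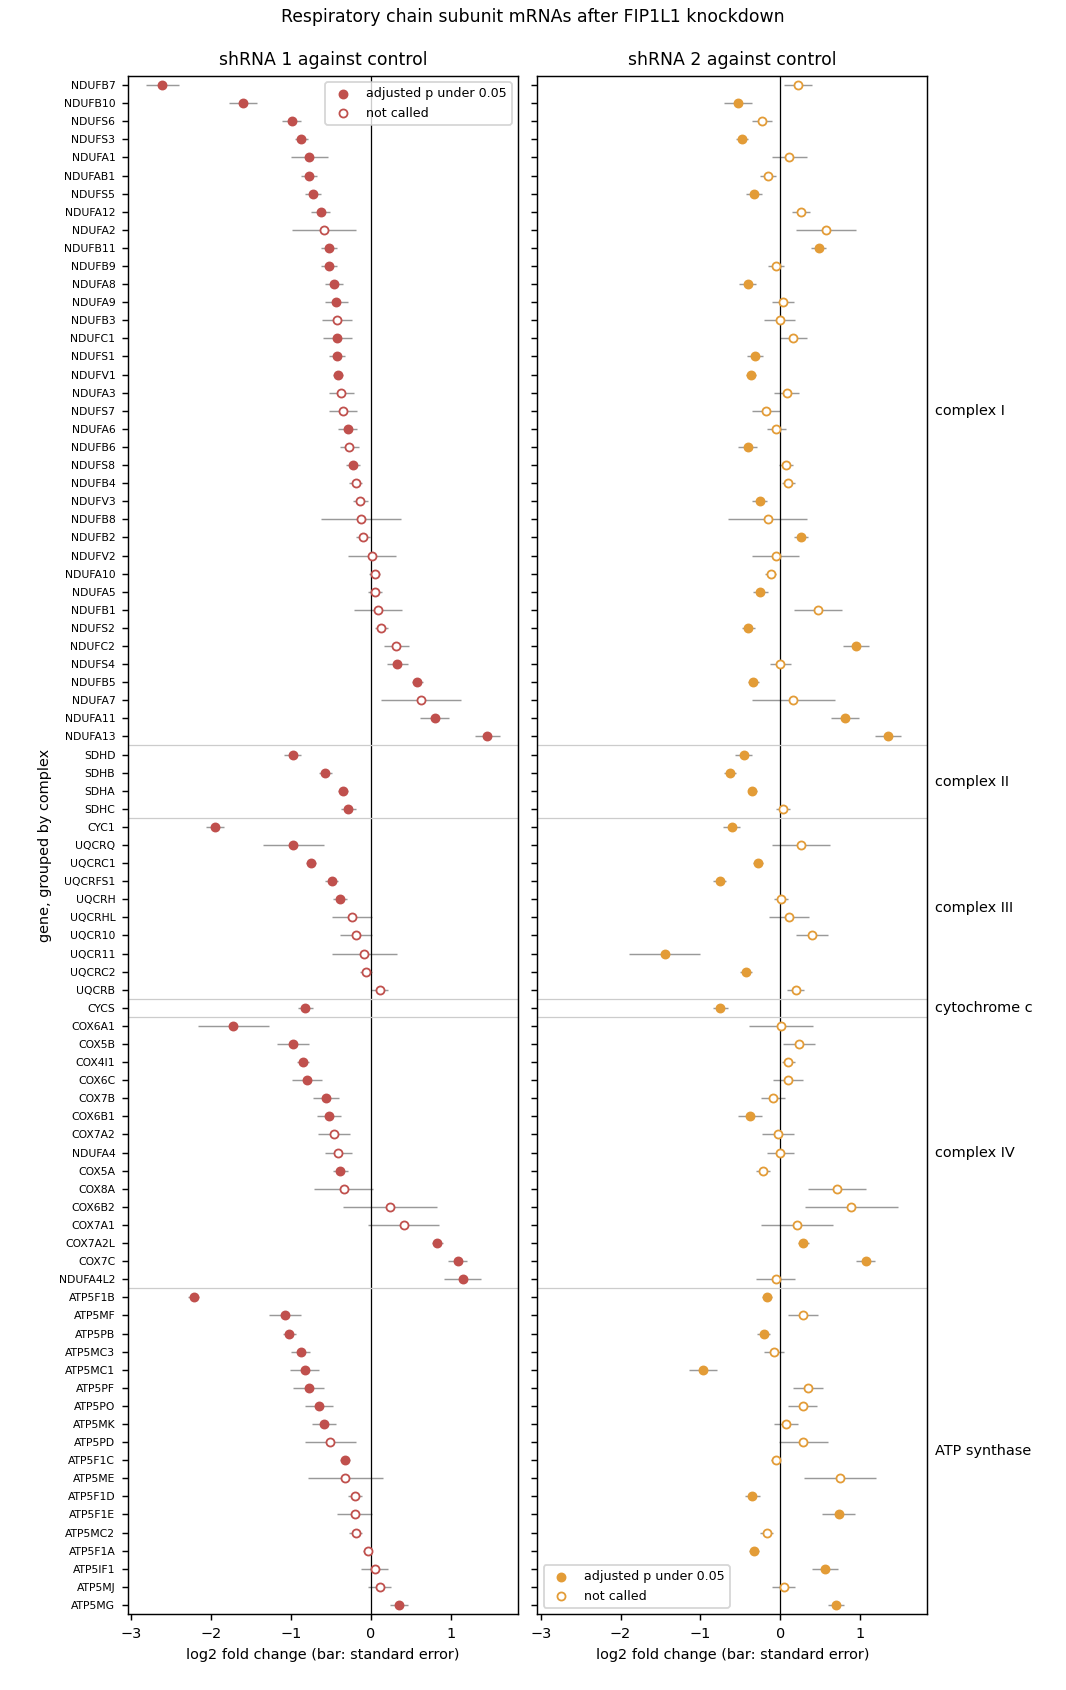
Log2 fold change of each of the 85 tested members (grouped by complex) with shRNA 1 (left) and shRNA 2 (right) against control, where bars are standard errors and filled points have an adjusted p under 0.05. With shRNA 1, 43 filled points lie left of 0 and 8 right of it, and with shRNA 2 the counts are 26 and 10.

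Libraries of shRNA 1 differed among themselves in a way that touches these counts. Other protein-coding genes with under 1500 exon bases (454 genes) summed to 11652, 13202, 16296 and 17803 CPM in shRNA 1 replicates 1 to 4 and to 15298, 15180, 15745 and 15294 CPM in shRNA 2, against 13548, 12957, 15342 and 14727 CPM in controls. Replicate 1 of shRNA 1 was below every control in short genes, replicate 2 was within the range of the controls, and replicates 3 and 4 were above every control. Controls 1 and 2 were also below controls 3 and 4. Of the 24 tested members with under 1500 exon bases 15 fell (62.5%) with shRNA 1 and 1 rose (4.17%). Of the 61 with 1500 exon bases or more 28 fell (45.9%) and 7 rose (11.5%), against 28.7% and 28.6% of all tested genes. Exon bases are merged over all transcripts of a gene, so these 61 include genes with a short principal transcript. ATP5PD, for example, has 3231 exon bases and a principal transcript of 603, and COX4I1 has 4792 and 873. Without shRNA 1 replicates 1 and 2, 36 members were lower with shRNA 1 and 13 higher, with a median log2 fold change of -0.22. Of all genes tested in that fit, 28.2% were lower and 27.2% higher. There, shRNA 2 against shRNA 1 gave 33 members higher and 13 lower, against 27.9% and 27.3% of all genes. The part of this library difference in the single results was not tested.

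**Figure D2:**
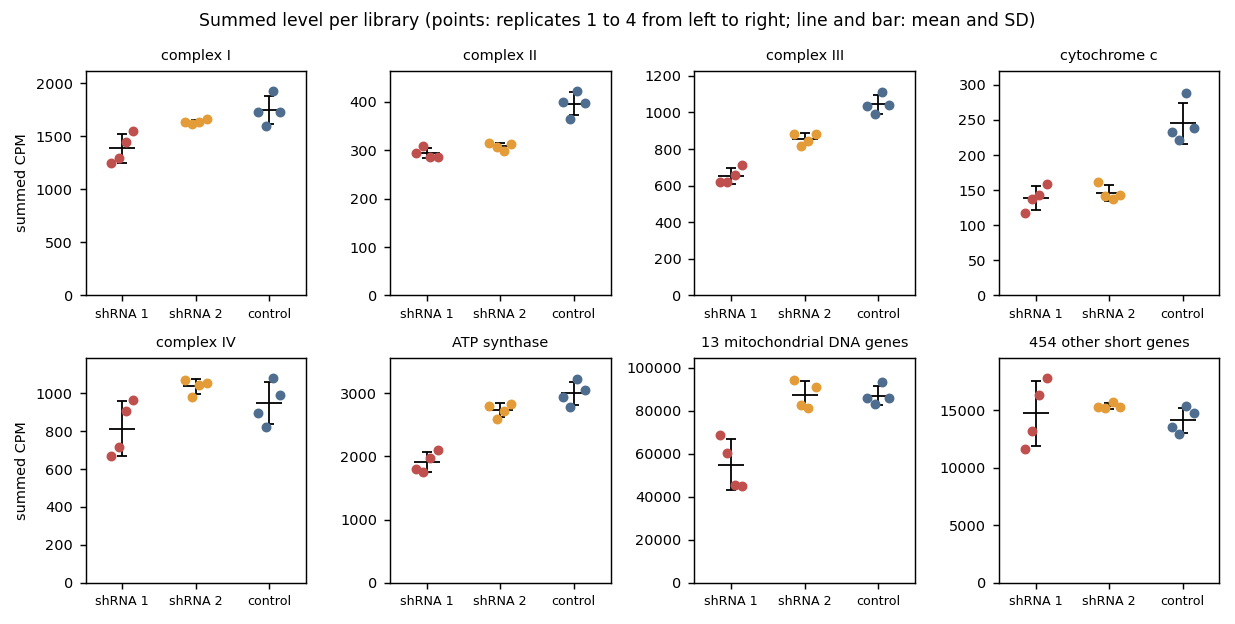
Summed CPM of the members of each complex, of the 13 protein genes of mitochondrial DNA and of 454 other short protein-coding genes, in the 4 libraries each of shRNA 1, shRNA 2 and control, with mean and SD. Complex II, complex III and cytochrome c lie below all controls with both shRNAs, and complex I, ATP synthase and the mitochondrial genes do so with shRNA 1.

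Summed over all 92 members, mRNA amounted to 4755, 4838, 5414 and 5762 CPM with shRNA 1 and to 6853, 6447, 6678 and 6887 CPM with shRNA 2, against 7232, 6779, 8050 and 7453 CPM in controls. All shRNA 1 libraries were below all controls, with a mean 0.704 times theirs, while shRNA 2 libraries overlapped with controls at 0.91 times. Complex III averaged 652 ± 43.3 CPM with shRNA 1 and 855 ± 32.8 CPM with shRNA 2, against 1043 ± 50.9 CPM in controls (SD, n = 4 each). Complex II averaged 294 ± 10.2 and 308 ± 7.45 CPM in the knockdowns, against 396 ± 23.7 CPM in controls. Complex IV averaged 813 ± 143 CPM with shRNA 1 and 1036 ± 39.6 CPM with shRNA 2, against 948 ± 112 CPM in controls. Libraries of each knockdown overlapped with the controls, while every shRNA 2 library (978 to 1068 CPM) was above every shRNA 1 library (669 to 963 CPM). These sums carry no test.

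In complex I, which oxidises NADH, 17 of 37 tested subunits fell (45.9%) and 4 rose (10.8%) with shRNA 1. With shRNA 2, 11 fell (29.7%) and 5 rose (13.5%). Here and for the lists below, the shares over all tested genes were 28.7% lower and 28.6% higher with shRNA 1. With shRNA 2 they were 25.3% lower and 24.7% higher. NDUFB7, an accessory subunit on the intermembrane space side, had 3.09, 6.17, 6.94 and 8.62 CPM with shRNA 1 and 42.3, 38.9, 48.1 and 47.2 CPM with shRNA 2, against 40.5, 33.2, 45 and 32.3 CPM in controls. Only the shRNA 1 libraries were low, and they did not overlap with the others. The log2 fold change was -2.61 ± 0.21 with shRNA 1 (adjusted p = 2.24e-08, edgeR), the largest fall of any tested member, and 0.22 ± 0.18 with shRNA 2 (adjusted p = 0.325). NDUFB10, an accessory subunit of the membrane arm, had 9.71, 9.02, 15.7 and 17.7 CPM with shRNA 1 and 25.1, 27, 28.5 and 27.8 CPM with shRNA 2, against 39.5, 29.6, 40.7 and 46.4 CPM in controls. All knockdown libraries were below all controls, by -1.60 ± 0.18 and -0.53 ± 0.17 on the log2 scale. The call with shRNA 2 (adjusted p = 0.018, edgeR) was lost without shRNA 2 replicate 1 (-0.49, adjusted p = 0.0509) or without control replicate 4 (-0.44, adjusted p = 0.0638).

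NDUFA13 and NDUFA11 ran the other way. NDUFA13, an accessory subunit also known as GRIM-19, had 11, 14.1, 14.2 and 17 CPM with shRNA 1 and 12.6, 15.1, 11.3 and 13 CPM with shRNA 2, against 5.83, 5.29, 4.35 and 4.94 CPM in controls. All 8 knockdown libraries were above the 4 controls, and the log2 fold changes were 1.46 ± 0.16 and 1.35 ± 0.16 (adjusted p = 4.91e-08 and 2.55e-07, edgeR), with a difference between shRNA 2 and shRNA 1 of -0.11 ± 0.15 (adjusted p = 0.551). Of its exon bases, 21.0% are shared with genes annotated on the same strand. For NDUFA11 and NDUFC2, described next, these shares are 9.65% and 16.3%. NDUFA11, a membrane-arm subunit, averaged 7.72 ± 0.967 CPM with shRNA 1 and 7.74 ± 0.961 CPM with shRNA 2, against 4.43 ± 0.844 CPM in controls, and rose by 0.80 ± 0.18 and 0.81 ± 0.18 on the log2 scale. NDUFC2, another membrane-arm subunit, had 12, 13.6, 14 and 13.7 CPM with shRNA 2, against 8.67, 4.95, 7.05 and 6.84 CPM in controls, a rise of 0.95 ± 0.16 of the log2 value. The shRNA 1 libraries, at 7.35 to 9.6 CPM, gave 0.32 ± 0.16 (adjusted p = 0.0979, edgeR), which passed without control replicate 1 (0.45, adjusted p = 0.0324).

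The 2 members called in opposite directions were both accessory subunits of complex I. NDUFB11, encoded on the X chromosome, had 62.6, 67.1, 82.3 and 84.8 CPM with shRNA 1 and 154, 148, 140 and 153 CPM with shRNA 2, against 103, 89.8, 122 and 110 CPM in controls. The 3 groups did not overlap, with controls in the middle, and shRNA 2 exceeded shRNA 1 by 1.00 ± 0.10 on the log2 scale. Its exons share 44.9% of their bases with RBM10 on the opposite strand, and the library kit does not mark strand, so NDUFB11 reads and RBM10 reads there are not separable. NDUFB5 showed the reverse order, with 125, 124, 115 and 118 CPM with shRNA 1 and 65.3, 65.9, 60.9 and 61.1 CPM with shRNA 2, against 75.8, 79.7, 78.4 and 87 CPM in controls. Again the groups did not overlap, and shRNA 2 was below shRNA 1 by a log2 difference of -0.93 ± 0.07. NDUFB5 shares no exon bases with another annotated gene.

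**Figure D3:**
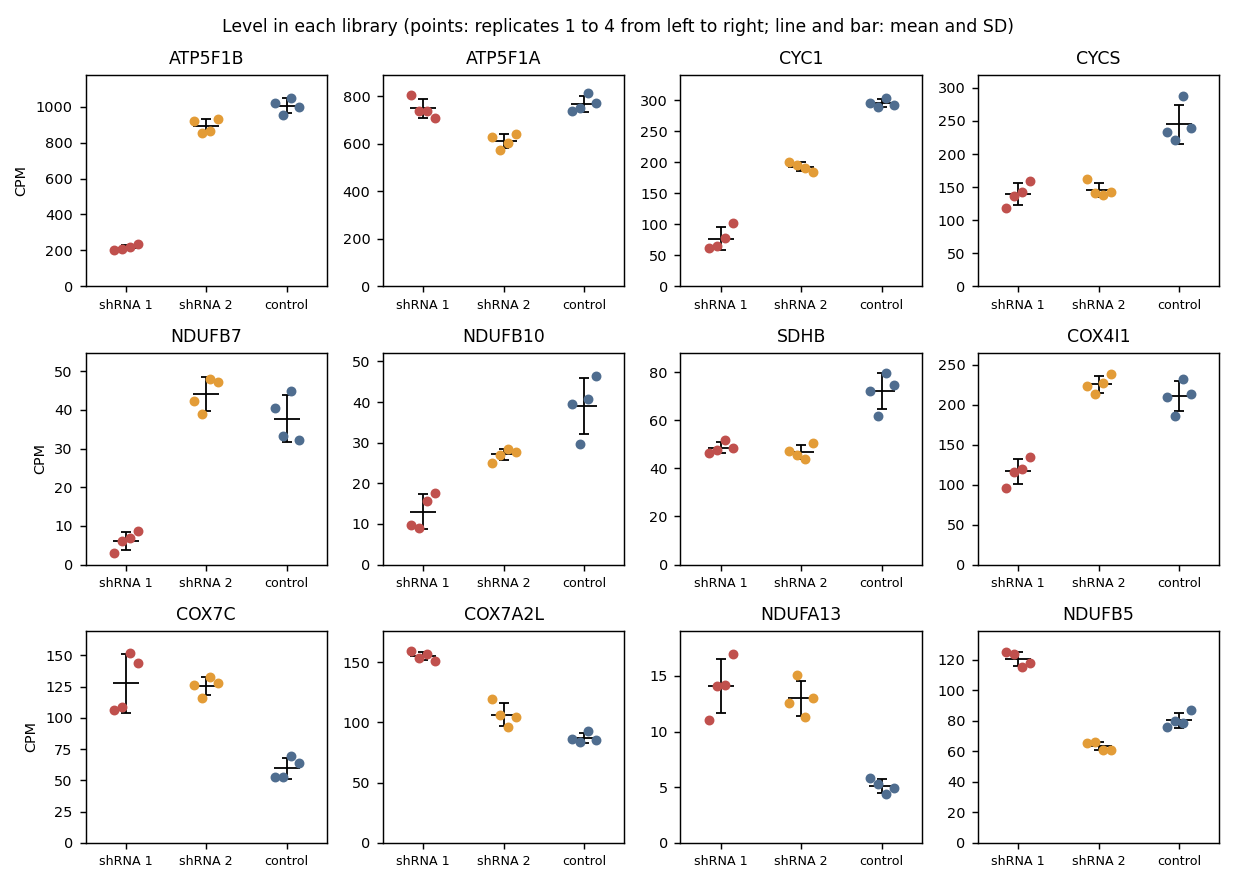
CPM of 12 members in each library of shRNA 1, shRNA 2 and control, with mean and SD. ATP5F1B and NDUFB7 are far lower with shRNA 1 than in the other groups, and ATP5F1B with shRNA 2 lies slightly below all controls. CYC1 is lower with shRNA 1 than with shRNA 2 and highest in controls. CYCS and SDHB are low with both, COX7C and NDUFA13 are high with both, and NDUFB5 lies above the controls with shRNA 1 and below them with shRNA 2.

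Complex II, succinate dehydrogenase, is encoded wholly in the nucleus, and all 4 of its subunits fell with shRNA 1 and 3 with shRNA 2. SDHA, the flavoprotein that oxidises succinate, had 198, 212, 183 and 183 CPM with shRNA 1 and 199, 194, 186 and 195 CPM with shRNA 2, against 251, 235, 261 and 242 CPM in controls. Both knockdowns lay below all controls and gave the same log2 fold change, -0.35 ± 0.06 (adjusted p = 4.71e-05 and 5.27e-05, edgeR). Counts at named SDHA pseudogenes amounted to 19.3% of the SDHA counts, so its reads may be divided among copies. SDHB, the iron-sulphur subunit, had 46.4, 47.5, 51.9 and 48.5 CPM with shRNA 1 and 47.3, 45.4, 43.7 and 50.4 CPM with shRNA 2, against 72.3, 61.8, 79.7 and 74.6 CPM in controls. The log2 fold changes were -0.57 ± 0.08 and -0.63 ± 0.08 (adjusted p = 2.22e-06 and 8.29e-07, edgeR), and no knockdown library reached a control library.

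The membrane anchors of complex II differed. SDHD had 19.3, 15.5, 21 and 23 CPM with shRNA 1 and 28.9, 27.5, 30.2 and 25.8 CPM with shRNA 2, against 40.7, 34.7, 42.4 and 36.3 CPM in controls, with log2 fold changes of -0.98 ± 0.11 and -0.46 ± 0.11. The 3 groups did not overlap. SDHC had 31, 33.3, 30.4 and 32 CPM with shRNA 1 and 40, 39.3, 38.1 and 40.2 CPM with shRNA 2, against 36.1, 33.7, 40.1 and 44.1 CPM in controls. It fell by a log2 change of -0.28 ± 0.09 with shRNA 1, a call lost without control replicate 4 (-0.21, adjusted p = 0.0526, edgeR) and under upper-quartile scaling (-0.19, adjusted p = 0.0693), and its change with shRNA 2 was 0.03 ± 0.09.

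In complex III, which passes electrons from ubiquinol to cytochrome c, 5 of 10 members (50%) fell with each shRNA and 0 rose. CYC1, the haem-bearing cytochrome c1, had 61.3, 65.2, 78.5 and 102 CPM with shRNA 1 and 201, 195, 191 and 185 CPM with shRNA 2, against 295, 290, 304 and 292 CPM in controls. The 3 groups were fully separate, with log2 fold changes of -1.95 ± 0.11 and -0.61 ± 0.11 (adjusted p = 1.35e-10 and 0.000156, edgeR). shRNA 2 exceeded shRNA 1 by 1.33 ± 0.11 (adjusted p = 1.58e-08). UQCRFS1, the Rieske iron-sulphur protein, had 50.7, 49.2, 44.7 and 42 CPM with shRNA 1 and 39.3, 38.7, 37.2 and 40.2 CPM with shRNA 2, against 62.3, 66.9, 65.1 and 68.1 CPM in controls. It was one of the 11 members lower with shRNA 2 than with shRNA 1, by a log2 difference of -0.27 ± 0.08, which was not called without shRNA 1 replicates 1 and 2 (-0.16, adjusted p = 0.11, edgeR).

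The other complex III calls, named after their values were seen, were the core subunits UQCRC1 and UQCRC2, the small subunits UQCRQ and UQCR11, and the hinge protein UQCRH. UQCRC1 fell with both, by -0.75 ± 0.06 and -0.28 ± 0.06 on the log2 scale, UQCRQ and UQCRH with shRNA 1, and UQCRC2 and UQCR11 with shRNA 2. UQCRQ passed narrowly with shRNA 1, at -0.97 ± 0.38 (adjusted p = 0.0484, edgeR). It had 4.51, 4.05, 11 and 13.9 CPM with shRNA 1, which overlapped with 14.8, 9.31, 21.3 and 19.1 CPM in controls. UQCRC2 changed by -0.43 ± 0.07 with shRNA 2 (adjusted p = 2.9e-05, edgeR). UQCR11 was at 0.371 to 0.793 CPM with shRNA 2, against 1.07 to 2.39 CPM in controls, so its change of -1.45 ± 0.45 rests on few counts, and it was not called without control replicate 2 (-1.15, adjusted p = 0.0541, edgeR). UQCRH averaged 114 ± 15.8 CPM with shRNA 1 and 151 ± 9.54 CPM with shRNA 2, against 149 ± 17.1 CPM in controls (SD, n = 4 each), with log2 fold changes of -0.39 ± 0.09 and 0.01 ± 0.09. Its near copy UQCRHL averaged 3.72 ± 1.44 and 4.73 ± 0.776 CPM in the knockdowns, against 4.37 ± 0.919 CPM in controls, and reads of the pair may be divided between them.

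CYCS, the mobile cytochrome c, had 118, 137, 143 and 159 CPM with shRNA 1 and 162, 141, 138 and 143 CPM with shRNA 2, against 233, 221, 288 and 239 CPM in controls. All knockdown libraries were below all controls, and the changes were of like size, -0.82 ± 0.09 and -0.75 ± 0.09 on the log2 scale (adjusted p = 6.35e-08 and 3.33e-07, edgeR). CYCS has 41 named pseudogenes in the table, whose counts came to 1.63% of those of CYCS itself. Its promoter is the first of the printed sequences.

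In complex IV, cytochrome c oxidase, 7 of 15 tested members fell (46.7%) and 3 rose (20%) with shRNA 1, whereas 1 fell (6.67%) and 2 rose (13.3%) with shRNA 2. COX4I1, the ubiquitous form of a regulatory subunit, had 95.9, 116, 120 and 134 CPM with shRNA 1 and 223, 213, 227 and 238 CPM with shRNA 2, against 210, 186, 232 and 213 CPM in controls. Only shRNA 1 was low, at -0.85 ± 0.08 on the log2 scale (adjusted p = 9.37e-09, edgeR), with 0.10 ± 0.08 for shRNA 2. COX6A1, the non-muscle form of its subunit, had 1.66, 0.736, 3.91 and 4.54 CPM with shRNA 1 and 9.54, 7.08, 9.21 and 9.41 CPM with shRNA 2, against 8.89, 4.44, 13.3 and 8.08 CPM in controls. The highest shRNA 1 library just exceeded the lowest control, and the log2 fold change was -1.72 ± 0.44 (adjusted p = 0.00462, edgeR). Counts at COX6A1 pseudogenes were 14.9% of its own.

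COX7C, a small membrane subunit, rose with both shRNAs. It had 106, 109, 152 and 144 CPM with shRNA 1 and 126, 116, 133 and 128 CPM with shRNA 2, against 52.3, 52.8, 69.4 and 64.2 CPM in controls. No knockdown library overlapped with controls, and the log2 fold changes were 1.09 ± 0.12 and 1.07 ± 0.12 (adjusted p = 2.99e-07 and 5.5e-07, edgeR). COX7A2L, a COX7A relative known as a supercomplex assembly factor (SCAF1), had 159, 153, 157 and 151 CPM with shRNA 1 and 119, 106, 96.1 and 104 CPM with shRNA 2, against 85.9, 83.4, 93 and 85.1 CPM in controls. The groups were separate, and it rose by 0.83 ± 0.07 and 0.29 ± 0.07 on the log2 scale. NDUFA4L2, a relative of NDUFA4 known as a target of hypoxia-inducible factor, had 10.2, 6.3, 14.2 and 14.3 CPM with shRNA 1 and 5.46, 4.76, 4.77 and 4.31 CPM with shRNA 2, against 3.29, 5.63, 5.18 and 5.94 CPM in controls. Only shRNA 1 was high, at 1.15 ± 0.23 (adjusted p = 0.000175, edgeR).

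Isoforms known mainly from muscle, lung or testis were absent or near the floor in all groups: COX4I2, COX6A2 and COX7B2 had no count, COX6B2 averaged 0.49 ± 0.213 and 0.776 ± 0.237 CPM in the shRNA 1 and shRNA 2 libraries, against 0.416 ± 0.299 CPM in controls, and COX7A1 ran between 0.658 and 1.23 CPM with shRNA 1 and between 0.795 and 0.85 CPM with shRNA 2, against 0.484 to 1.07 CPM in controls. Neither COX6B2 nor COX7A1 was called in any comparison. COX6B1, the common form, averaged 54 ± 12.8 CPM with shRNA 1 and 59.3 ± 2.92 CPM with shRNA 2, against 77.2 ± 13.7 CPM in controls. It fell by log2 changes of -0.52 ± 0.15 and -0.38 ± 0.15 (adjusted p = 0.00725 and 0.0424, edgeR), but the shRNA 2 call was lost without control replicate 3 or 4 or without any 1 of the 4 shRNA 2 replicates (adjusted p between 0.0623 and 0.129), and the shRNA 1 call without shRNA 1 replicates 1 and 2 (adjusted p = 0.0549). COX7B fell with shRNA 1 (-0.56 ± 0.16), with 23.1, 25.5, 39.1 and 39 CPM, against 45.1, 36.8, 52.9 and 50.7 CPM in controls. COX7A2, COX8A and NDUFA4 had log2 fold changes of -0.46 ± 0.20, -0.34 ± 0.37 and -0.41 ± 0.17 with shRNA 1 that did not pass. All 3 were lower in shRNA 1 replicates 1 and 2 than in replicates 3 and 4. For COX8A replicates 1 and 2 had 6.68 and 8.24 CPM and replicates 3 and 4 had 18.4 and 24.8 CPM. With shRNA 1, COX7A2 was called lower without shRNA 1 replicate 3 or 4 (adjusted p = 0.0317 and 0.0103, edgeR), and NDUFA4 without shRNA 1 replicate 4 or control replicate 2 (adjusted p = 0.00151 and 0.0378). COX8A was at 27.7 to 32.5 CPM with shRNA 2, above all 4 controls at 13.6 to 23.1 CPM, with 0.71 ± 0.36 on the log2 scale (adjusted p = 0.125, edgeR). That value was called when only these 2 groups were fitted (adjusted p = 6.25e-06) and without shRNA 1 replicate 4 (adjusted p = 0.0482). COX8A shares 34.5% of its exon bases with a gene annotated on the same strand.

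In ATP synthase, 9 of 18 tested members fell (50%) and 1 rose (5.56%) with shRNA 1. With shRNA 2, 5 fell (27.8%) and 3 rose (16.7%), against 25.3% and 24.7% of all tested genes. ATP5F1B, the catalytic beta subunit, had 202, 206, 220 and 236 CPM with shRNA 1 and 918, 851, 867 and 934 CPM with shRNA 2, against 1020, 951, 1049 and 999 CPM in controls. With shRNA 1 it was far below every other library, at -2.22 ± 0.07 on the log2 scale (adjusted p = 1.61e-17, edgeR). With shRNA 2 the change was -0.17 ± 0.06 (adjusted p = 0.0272), and this call was lost without control replicate 1 or 3 or shRNA 2 replicate 2 or 3 (adjusted p between 0.0598 and 0.0915). Its partner in the catalytic hexamer, the alpha subunit ATP5F1A, had 807, 738, 739 and 710 CPM with shRNA 1 and 630, 573, 603 and 641 CPM with shRNA 2, against 737, 750, 813 and 773 CPM in controls, and fell by a log2 change of -0.33 ± 0.06 with shRNA 2. The ratio of ATP5F1B to ATP5F1A counts was 0.29 ± 0.0349 with shRNA 1 and 1.46 ± 0.0194 with shRNA 2, against 1.31 ± 0.0521 in controls (SD, n = 4 each). The alpha and beta mRNAs thus moved apart with shRNA 1 and lay nearer to their control ratio with shRNA 2. Even so, every shRNA 2 library (1.44 to 1.48) was above every control (1.27 to 1.39) in this ratio.

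The membrane ring of ATP synthase is built from subunit c, for which 3 genes encode the same mature protein. ATP5MC1 had 34.1, 23.9, 46.3 and 51.8 CPM with shRNA 1 and 34.9, 34.5, 35.1 and 35.9 CPM with shRNA 2, against 65.4, 59.9, 75 and 75.1 CPM in controls. It fell with both, by -0.83 ± 0.18 and -0.97 ± 0.18 on the log2 scale (adjusted p = 0.00152 and 0.00057, edgeR), without overlap. ATP5MC3 had 57.4, 64, 79.6 and 91 CPM with shRNA 1 and 129, 121, 131 and 127 CPM with shRNA 2, against 125, 114, 156 and 142 CPM in controls, and fell with shRNA 1 (-0.88 ± 0.12), with -0.08 ± 0.12 for shRNA 2. ATP5MC2 had log2 values of -0.19 ± 0.08 and -0.17 ± 0.08, which did not pass. Without shRNA 1 replicate 4 both were called (adjusted p = 0.00146 and 0.0357, edgeR), and without control replicate 2 the shRNA 1 value was (adjusted p = 0.0295). Per kilobase of principal transcript, ATP5MC2 stood at 124 ± 18.8 CPM with shRNA 1 and 126 ± 5.5 CPM with shRNA 2, against 142 ± 11.3 CPM in controls, and ATP5MC1 at 63.5 ± 20.3 and 57.2 ± 0.963 CPM, against 112 ± 12.2 CPM. ATP5MC3 was at 13.3 ± 2.77 and 23.2 ± 0.773 CPM per kilobase in the knockdowns, against 24.5 ± 3.36 CPM in controls. In all 3 groups ATP5MC2 was the most abundant of the genes on this scale. The scale depends on the transcript taken, which was the longest principal one. Its length was 614 bases for ATP5MC1, 1950 for ATP5MC2 and 5484 for ATP5MC3.

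ATP5MG, a membrane subunit linked to dimer formation, had 45.6, 49, 51.5 and 66.8 CPM with shRNA 1 and 71.5, 61.5, 68.3 and 69.2 CPM with shRNA 2, against 40.3, 36.2, 48.2 and 41.9 CPM in controls. It rose by 0.35 ± 0.11 and 0.70 ± 0.10 on the log2 scale, with some overlap between shRNA 1 and controls. ATP5F1E, the epsilon subunit of the central stalk, averaged 54.5 ± 18.7 CPM with shRNA 1 and 104 ± 5.79 CPM with shRNA 2, against 62.3 ± 9.66 CPM in controls, a rise of 0.73 ± 0.21 with shRNA 2 (adjusted p = 0.0149, edgeR) and a log2 value of -0.20 ± 0.22 with shRNA 1. It shares 23.2% of its exon bases with TUBB1 on the opposite strand. ATP5MF, a membrane subunit, averaged 11.8 ± 3.29 CPM with shRNA 1 and 29.9 ± 2.41 CPM with shRNA 2, against 24.5 ± 6.75 CPM in controls. It fell with shRNA 1 (-1.07 ± 0.20, adjusted p = 0.00016, edgeR). With shRNA 2 the value was 0.28 ± 0.19 (adjusted p = 0.226), called without control replicate 3 (0.45, adjusted p = 0.0489). The 2 knockdowns differed by 1.36 ± 0.19 on the log2 scale (adjusted p = 1.21e-05, edgeR), without overlap. ATP5IF1, which inhibits ATP hydrolysis by the enzyme, had 70.8, 72.3, 76.4 and 74.7 CPM with shRNA 2, against 48.1, 42.5, 58.6 and 49.8 CPM in controls. It rose by 0.56 ± 0.16 with shRNA 2 (adjusted p = 0.0113, edgeR), while shRNA 1 spread over 38.6, 39.4, 59 and 69.6 CPM with a log2 value of 0.05 ± 0.17. Without shRNA 1 replicates 1 and 2 the shRNA 1 value was 0.36 (adjusted p = 0.00123, edgeR).

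Products of the mitochondrial genome moved with shRNA 1. All 13 protein genes of mitochondrial DNA fell, with a median log2 fold change of -0.89, and their summed level was 68693, 60487, 45255 and 44814 CPM with shRNA 1 and 94171, 82586, 81234 and 91023 CPM with shRNA 2, against 85845, 82910, 93090 and 86035 CPM in controls. Replicates 1 and 2 of shRNA 1 were here the less reduced, whereas in the nuclear sum they were the more reduced. With shRNA 2, 12 of the 13 were not called, and MT-ND6, the only one encoded on the other strand from the rest, rose by 0.38 ± 0.10 (adjusted p = 0.00467, edgeR). Because the library kit does not mark strand, MT-ND6 reads are not separable from reads of RNA of the opposite strand there. MT-CO3, a core subunit of complex IV, changed by -1.47 ± 0.12 with shRNA 1, and MT-ATP6, the proton channel subunit of ATP synthase, by -1.32 ± 0.11.

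Of 55 tested assembly factors, 22 fell (40%) and 2 rose (3.64%) with shRNA 1, and 25 fell (45.5%) and 5 rose (9.09%) with shRNA 2. Over all tested genes 28.7% and 28.6% did so with shRNA 1, and 25.3% and 24.7% with shRNA 2. The medians of the assembly factors were -0.18 and -0.30 on the log2 scale. Of them 15 fell with both, as did 12.8% of all tested genes. ACAD9, a complex I assembly factor, had 36.6, 34.4, 36.4 and 41.4 CPM with shRNA 1 and 28.9, 30, 27.3 and 28.2 CPM with shRNA 2, against 73.2, 68.1, 71.4 and 66.8 CPM in controls. All knockdown libraries were near or below 41.4 CPM, with log2 fold changes of -0.91 ± 0.08 and -1.29 ± 0.08. NDUFAF1, which acts at the same stage, fell by log2 changes of -1.12 ± 0.22 and -1.47 ± 0.22. COA5, a complex IV assembly factor, rose by 0.92 ± 0.12 and 0.31 ± 0.13. Its shRNA 2 call (adjusted p = 0.0462, edgeR) was lost without control replicate 1, 2 or 3 or any 1 of the shRNA 2 replicates (adjusted p between 0.0547 and 0.157).

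Of 21 tested regulators of mitochondrial transcription and of nuclear respiratory genes, 10 fell (47.6%) and 2 rose (9.52%) with shRNA 1. With shRNA 2, 10 fell (47.6%) and 1 rose (4.76%). Over all tested genes the shares were 28.7% and 28.6% with shRNA 1, and 25.3% and 24.7% with shRNA 2. TWNK, the helicase of mitochondrial DNA replication, had 32, 29.6, 26.7 and 25.7 CPM with shRNA 1 and 25.3, 25.8, 26.2 and 24.2 CPM with shRNA 2, against 51.5, 51, 52.4 and 50.8 CPM in controls. No library of either knockdown came near the controls, and the log2 fold changes were -0.85 ± 0.09 and -1.02 ± 0.09 (adjusted p = 1.3e-08 and 1.38e-09, edgeR). TFB1M, a mitochondrial rRNA methyltransferase, fell by log2 changes of -0.78 ± 0.14 and -0.69 ± 0.14. GABPB1, the beta subunit of GABP, changed by -0.28 ± 0.10 with shRNA 1 and 0.38 ± 0.09 with shRNA 2, though its shRNA 1 call was lost without shRNA 1 replicates 1 and 2 (-0.22, adjusted p = 0.079, edgeR) and under upper-quartile scaling (-0.18, adjusted p = 0.105). GABPA, the other subunit of GABP, was called lower with both, at -0.25 ± 0.09 and -0.38 ± 0.09 (adjusted p = 0.0272 and 0.00175, edgeR). NRF1 (0.09 ± 0.09 and -0.04 ± 0.09) and YY1 (-0.03 ± 0.06 and -0.09 ± 0.06) were not called with either shRNA. GABPA, NRF1 and YY1 were named after their values were seen. MTERF2, a member of the mitochondrial termination factor family, rose with shRNA 1 (0.92 ± 0.22).

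Among 13 genes of ubiquinone synthesis, 4 fell (30.8%) with each shRNA, and 3 rose (23.1%) with shRNA 1 and 1 (7.69%) with shRNA 2. The share that fell was near that of all tested genes, 28.7% with shRNA 1 and 25.3% with shRNA 2. Of all tested genes 28.6% and 24.7% rose. PDSS1, which makes the isoprenoid tail of ubiquinone, had 6.51, 10.2, 9.92 and 9.21 CPM with shRNA 1 and 16, 16.9, 15.3 and 15.5 CPM with shRNA 2, against 27.6, 22.9, 24.5 and 28 CPM in controls. The groups were separate, with log2 fold changes of -1.52 ± 0.13 and -0.69 ± 0.13. COQ10B and COQ5, both of the ubiquinone pathway, rose with shRNA 1 by 0.60 ± 0.14 and 0.35 ± 0.12, and COQ5 was not called without control replicate 2 (0.23, adjusted p = 0.0712, edgeR). Of 7 carriers and porins, 5 fell (71.4%) with each shRNA and 1 rose (14.3%) with shRNA 1. SLC25A6, an ADP/ATP carrier, had 456, 429, 429 and 444 CPM with shRNA 1 and 556, 515, 543 and 586 CPM with shRNA 2, against 1040, 960, 1010 and 964 CPM in controls. It changed by -1.18 ± 0.06 and -0.85 ± 0.06 on the log2 scale, and SLC25A3, the phosphate carrier, by -0.69 ± 0.07 and -0.55 ± 0.07. VDAC2, an outer membrane porin, was called in opposite directions, at 0.19 ± 0.06 and -0.30 ± 0.06.

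Several members are measured less firmly. Exon bases are shared with another annotated gene in 49 of the 92, on the opposite strand in 36, and 51 have a named pseudogene in the table, 228 pseudogenes in all. Pseudogene counts exceeded 10% of the member's own for 4 members, COX6A1, SDHA, NDUFB8 and NDUFV2. Among the 16 members with a mean under 5 CPM were UQCR11, NDUFB8, ATP5ME, NDUFA7, NDUFV2 and NDUFA2, which are known as constitutive subunits. NDUFB8, NDUFA7 and NDUFV2 share 33.8%, 32.3% and 28.4% of their exon bases with a gene on the same strand, and ATP5ME shares 61.6% with MYL5 on the opposite strand. The part of such overlap in their low counts was not tested.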

How the data were processed

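RNA was sequenced from 12 libraries of Kasumi-1 cells, 4 each for FIP1L1 shRNA 1, FIP1L1 shRNA 2 and control. The authors deposited raw read counts for genes named by Ensembl ID. The submitters' processing notes list hg19 as the build and, without roles, STAR 2.7.3a, cutadapt 2.6 and DESeq2. Symbols came from current gene names by Ensembl ID, otherwise from GENCODE 29 (GRCh38), which also gave exon lengths and overlaps, and promoters came from RefSeq (GRCh38.p14).

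Counts were fitted with edgeR 4.0.16 in R 4.3.3 (TMM scaling, filterByExpr, robust quasi-likelihood, all 12 libraries in 1 fit, 9 residual degrees of freedom). Adjusted p-values were Benjamini-Hochberg over 15834 genes, with a threshold of 0.05. Standard errors are those implied by the F statistic. CPM use library sizes after TMM scaling. The pipeline was tested on simulated data. Alternatives were DESeq2 1.42.0, other scalings and filters, a replicate block and leaving out libraries.

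Members and gene lists were chosen with earlier results of these data known. Named with values were CYC1 and CYCS, the 8 called members of largest change against control and the 5 between the shRNAs (mean of at least 5 CPM), members higher with both or opposite, isoform families, the inhibitor ATP5IF1, the 4 SDH genes and up to 4 genes per other list. ATP5F1A, the partner of ATP5F1B, and genes said to be named after their values were seen fall outside this. Poly(A) site counts were not used here. 1 marker gene is not reported here.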

Additional observations from a re-analysis of the deposited data

Results flagged for a closer look

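In all, 138 groups of 4 libraries were examined, for named members, FIP1L1 and the summed levels with each shRNA and in controls. Of these, 4 had a library whose gap to its nearest neighbour was large for the range of the group, and chance gives about 1 in 20 groups. COX6A1 stood at 7.08 CPM in shRNA 2 replicate 2, with the others between 9.21 and 9.54 CPM. ATP5MC2 stood at 230 CPM in the same library, with the others between 250 and 253 CPM. COX8C, an isoform near the floor, stood at 0.526 CPM in shRNA 1 replicate 4 with the others at or under 0.117 CPM, and at 0 in shRNA 2 replicate 4 with the others at or above 0.053 CPM.

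For the 2 members called in opposite directions against control, the log2 difference of shRNA 2 from shRNA 1 was 1.00 for NDUFB11 and -0.93 for NDUFB5. They were chosen for those opposite calls, so the differences are a description.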

How the results depend on the processing

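The number of members called lower with shRNA 1 was 43, 44 with DESeq2 and 50 with a replicate block, and 38 to 53 when 1 library was left out; called higher, 8, and 7 to 10. With shRNA 2 these were 26 lower (21 to 29) and 10 higher (9 to 13), and for shRNA 2 against shRNA 1, 43 higher (40 to 51) and 11 lower (9 to 12). The count higher with shRNA 1 was 13 when shRNA 1 replicates 1 and 2 were left out, a choice made after seeing the data. The count higher with shRNA 2 was 18 when only the compared groups were fitted. Of all genes, 27.2% and 29.5% were called higher in these fits. The cause was not tested. Under upper-quartile scaling the median of all genes with shRNA 1 was 0.12 and the members, at a median of -0.28, gave 37 lower and 11 higher. Of all genes 24.2% were lower and 34.0% higher there. Taken over all tested genes, deviations of same-numbered libraries had correlations between -0.037 and 0.089. These values cover all genes together, so they do not settle whether the members pair by replicate number, which was not tested. The replicate block gave 8 higher and 50 lower with shRNA 1, 14 and 28 with shRNA 2, and 47 and 11 between shRNAs. With the block, edgeR called COX7A2 with shRNA 1 (-0.48, adjusted p = 0.00425) and between shRNAs (0.47, adjusted p = 0.00493), NDUFA4 likewise (-0.42, adjusted p = 0.0257, and 0.44, adjusted p = 0.0204), ATP5MF with shRNA 2 (0.32, adjusted p = 0.0421) and ATP5MC2 with both (-0.20, adjusted p = 0.0179, and -0.17, adjusted p = 0.0469). Scaled by library totals alone, complex II summed to 315 CPM with shRNA 1 and 305 with shRNA 2, against 371 in controls, complex III to 699 and 848 against 977, ATP synthase to 2044 and 2711 against 2808, and the mitochondrial genes to 58552 and 86522 against 81460; the complex I sums with shRNA 1 then overlapped with controls and the complex IV sums with shRNA 2 lay above them. Of 2236 alternative values of named genes in 114 comparisons, 2173 kept direction and side of the threshold, 35 lost the call, 20 gained it and 8 changed sign. All 8 concern values that were not called. GABPA, NRF1, YY1, UQCRQ and UQCRC2 were not among the genes of these comparisons. Without shRNA 1 replicates 1 and 2, ATP5F1E was 0.16 and COX8A 0.24 with shRNA 1. With 1 library left out, UQCRH with shRNA 2 ran between -0.05 and 0.09, ATP5IF1 with shRNA 1 between -0.13 and 0.16, and SDHC with shRNA 2 between -0.03 and 0.10. Of 774 alternative values in the 40 comparisons of named members that were not called, 57 changed sign, 0 of them with a call.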
